A study of Mus musculus with 4 samples.

Results

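Mzb1 and 9 genes of protein folding and of the unfolded protein response in the endoplasmic reticulum (ER) were followed in RAGhigh and RAGlow common lymphoid progenitors. The 10 genes were chosen by symbol, and they are covered by 28 of the 34945 probe sets that the platform annotation lists with 1 gene, and make up 10 of 18193 genes. Mzb1 was chosen because its level differed between the groups, and the other 9 by function, with the values of the same comparison already known. Their differences between the groups are therefore given as descriptions, with no test.

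The study profiled 2 fractions of common lymphoid progenitors (CLP), bone marrow cells that can give rise to lymphocytes of every kind. CLP_RAGhigh and CLP_RAGlow cells came from adult C57Bl6 mice of 8 to 12 weeks, with 2 arrays per group and RNA of 2000 cells per array. The sample descriptions name the fractions by high or low GFP; the labels do not describe the reporter, and no other allele or treatment is named for either group. The replicates are called biological, but whether they stem from different mice or different sorts is not stated. Errors and p-values below therefore speak only for these samples. Each SE is that of the limma fit, which borrows the spread of other genes, and is not the spread of the gene alone.

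Proteins that are secreted or displayed on the cell surface fold inside the ER, where chaperones hold unfinished chains, lectins bind their sugars and disulfide isomerases form their bonds. When unfolded chains accumulate, sensors in the ER membrane start the unfolded protein response, which raises chaperone genes through XBP1 and ATF6 and stress genes through ATF4. The response is best known in the B lineage from plasma cells, which need XBP1 to secrete antibody. MZB1 is an ER protein of B cells, plasma cells and plasmacytoid dendritic cells, where it works with the chaperone GRP94 in the folding of immunoglobulin heavy chains and of other clients. The comparison thus asks whether the Mzb1 difference between the progenitors goes along with differences in the general folding machinery.

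Median deposited intensities lay between 14.5 and 14.8 on the 4 arrays, a small number that limits precision. The group names were checked on Rag1, the catalytic subunit of the recombinase. Its log2 intensity was 10.92 and 10.62 in CLP_RAGhigh and 7.72 and 8.53 in CLP_RAGlow, and Rag2, its partner, had 9.47 and 9.15 against 8.12 and 8.72. Of the markers of the labelled cell type, Flt3 ranged from 10.65 to 11.17 and Il7r from 10.24 to 11.81, and both lay far above the median over all probe sets, 3.88 on the log2 scale. Over all genes, limma called 0% higher and 0% lower in CLP_RAGhigh at an adjusted p under 0.05. At an unadjusted p under 0.05 it gave 2.35% higher and 2.94% lower. For 15.4% of all genes the groups did not overlap with CLP_RAGhigh above, and for 15.8% with CLP_RAGhigh below.

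Mzb1 had a log2 intensity of 9.32 and 9.49 on the CLP_RAGhigh arrays and of 6.91 and 7.43 on the CLP_RAGlow arrays. The groups did not overlap, and the gap of 1.90 between them was larger than the widest range within a group, 0.52. The group means were 9.41 ± 0.12 and 7.17 ± 0.37 (SD, n = 2 each). They differed by 2.24 ± 0.33 (SE), which is 4.72-fold. Among all 18193 genes, 35 had a larger difference toward CLP_RAGhigh, and 18 of 11203 genes did so where both group means lay at or above the median probe set. Mzb1 is measured by 1 probe set, so no other probe set bears on the value. With 32 added to the linear values, which damps differences of dim genes, the difference was 2.01, and with 1 array left out it ran from 1.98 to 2.50. In RNA from sorted cells a lower level in each cell and a smaller share of cells with the transcript cannot be told apart.

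**Figure D1:**
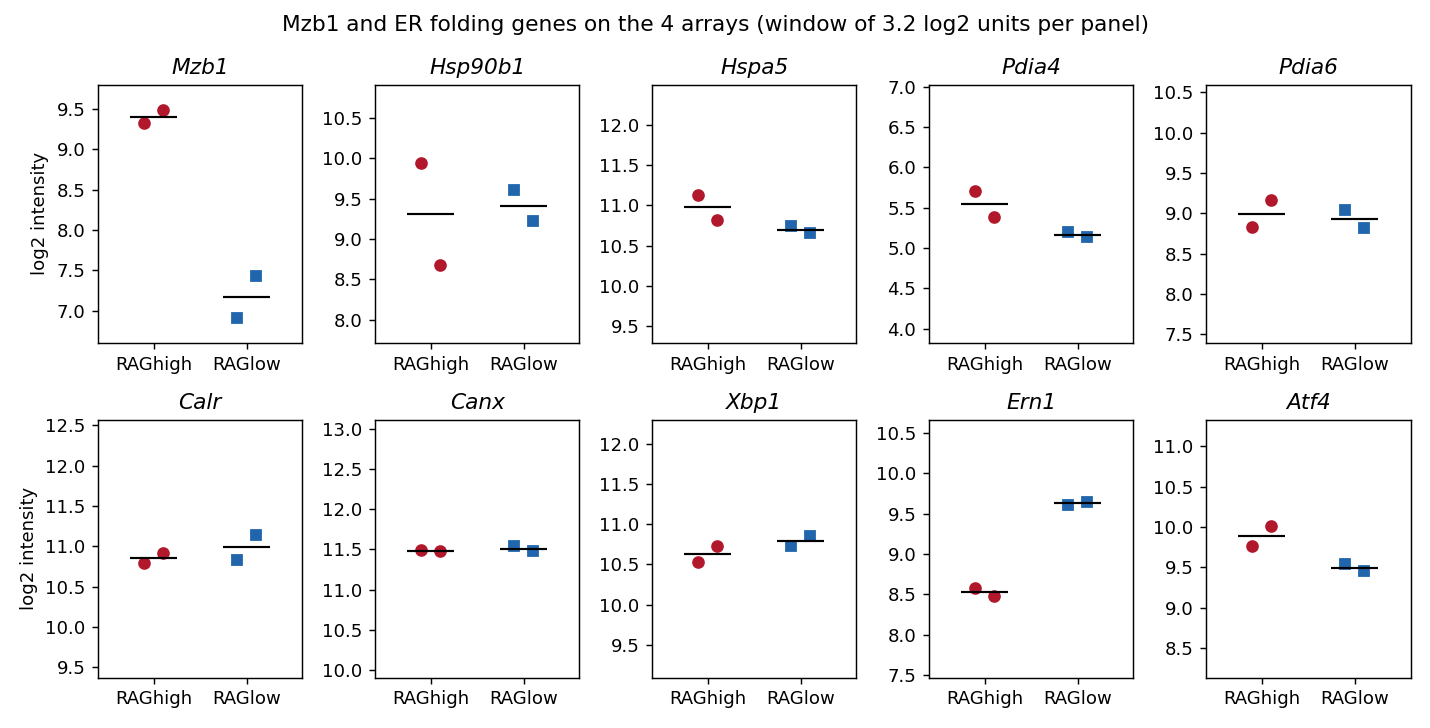
The log2 intensity (vertical axis, the same span in every panel) of each gene's brightest probe set is plotted for the CLP_RAGhigh arrays (circles) and CLP_RAGlow arrays (squares), with the group mean as a line. Mzb1 stands 2.24 higher and Ern1 1.10 lower in CLP_RAGhigh, while the other 8 panels show group means within 0.5 of each other.

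Mzb1 is a marker of cells other than progenitors, so marker lists of 7 cell types were set beside it. Committed B-cell markers had a summed linear intensity of 2978 to 3168 in CLP_RAGhigh and of 495 to 579 in CLP_RAGlow over 9 measured genes. Of these, 8 had a higher mean in CLP_RAGhigh, 7 lay above without overlap and 1 below. Vpreb1, part of the surrogate light chain, differed by 3.13 ± 0.28. Ebf1, an early transcription factor of the B lineage, differed by 3.65 ± 0.54 (2.69 with its 5 probe sets averaged). Cd79a, a chain of the B-cell receptor, differed by 2.05 ± 0.39 (1.05 with 32 added before log2). The gene below was Ms4a1 (-0.39), which was dim at 2.61 to 3.32, and Igll1 (0.75) overlapped. Pax5 had 5.34 and 4.15 against 3.80 and 3.66, so it was dim in CLP_RAGlow. Ms4a1, Igll1 and Pax5 were named after their values were seen. Further lists also had their higher sums on the CLP_RAGhigh arrays. Progenitor markers summed to 19359 to 23816 against 16505 to 18293 over 8 genes, of which 5 lay above without overlap. Among them were Rag1, Rag2 and Ly6d, a surface marker of B-lineage priming, at 2.51 ± 0.41. The groups are named for RAG and were checked on Rag1 and Rag2, so these genes say nothing separate on progenitor markers. Il7r (0.81) and Dntt (0.06) also lay above, while Flt3 (0.14), Notch1 (0.12) and Kit (-0.28) overlapped (all named after their values were seen). Erythroid markers summed to 1336 to 1956 against 1094 to 1187 over 6 genes, with 2 above and 0 below without overlap. Klf1, a transcription factor of red cell formation, differed by 2.02 ± 0.62 (1.25 without CLP_RAGlow replicate 2), Tfrc, the transferrin receptor, by 0.42 ± 0.22 (0.20 without CLP_RAGhigh replicate 1) and Car1, a carbonic anhydrase, by 1.28 ± 1.07 (-0.46 without CLP_RAGhigh replicate 1). Hba-a1, an alpha globin named after its values were seen, lay near background, at 2.94 to 3.28. Most of the erythroid sum came from Tfrc, at 9.99 to 10.69. Epor (-0.004) and Gata1 (0.20), also named after their values were seen, overlapped. T and natural killer cell markers summed to 996 to 1016 against 775 to 905 over 10 genes, with 3 above and 0 below without overlap. Of these, Klrd1, a receptor of natural killer cells, differed by 0.73 ± 0.42 (0.40 without CLP_RAGlow replicate 1), Prf1, perforin, by 0.59 ± 0.39 with overlap (0.12 without CLP_RAGhigh replicate 1) and Cd8a by 0.26 ± 0.31 (0.07 without CLP_RAGlow replicate 1). Where a gene had other probe sets, those with an _s, _x or _a suffix were left out as an alternative, and Prf1 was then at -0.12 and Cd8a at 0.01. Most of the T and natural killer cell sum came from Nkg7 (0.19 ± 0.24), at 9.12 to 9.46 and named after its values were seen. By mean, 7 of the 10 genes were higher and 3 lower in CLP_RAGhigh, and 5 were below the median probe set in at least 1 group. Granulocyte and monocyte markers overlapped in sum, at 3507 to 3655 and 3361 to 4561 over 10 genes. The sum of 3361 was that of CLP_RAGlow replicate 2, where S100a8 and S100a9 (named after its values were seen) were at 3.81 and 3.79. On CLP_RAGlow replicate 1 they were at 10.15 and 8.44, so the overlap in sum rested on these genes. Of the 10 genes, 6 were lower by mean in CLP_RAGhigh and 4, with S100a8 and S100a9 among them, were higher. Csf1r and Csf3r, receptors of myeloid growth factors, differed by -1.90 ± 0.52 (-1.17 without CLP_RAGhigh replicate 1) and -0.83 ± 0.36. Mzb1 thus had its higher values on the same arrays as most of the committed B-cell markers. In CLP_RAGhigh most of the committed B-cell sum came from Vpreb1 and Ebf1, so the counts describe that list better than its sum. The progenitor sum includes Rag1 and Rag2, and the erythroid and T and natural killer cell sums came mostly from Tfrc and Nkg7. Those sums therefore do not show that their lists were higher as a whole. The part of any of these cell types in the Mzb1 value was not tested.

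Plasmacytoid dendritic cell markers had the lower sum in CLP_RAGhigh, with 3221 to 4422 in CLP_RAGhigh and 4896 to 6148 in CLP_RAGlow over 9 genes. Of the 9, 7 had a lower mean in CLP_RAGhigh, and 1 lay above and 3 below without overlap. Irf8, a transcription factor of dendritic cells, was at -0.65 ± 0.26 (-0.36 without CLP_RAGhigh replicate 2), Cox6a2 at -1.06 ± 0.43 (-0.47 without CLP_RAGhigh replicate 1, -1.66 without CLP_RAGhigh replicate 2) and Bst2 at -0.90 ± 0.39. Siglech, a surface receptor that defines these cells and was named after its values were seen, went the other way, by 0.31 ± 0.31 without overlap, with values from 4.76 to 5.25. Plasma cell markers overlapped in sum, at 3506 to 5719 and 3139 to 4112 over 10 genes. Their levels were mixed, with 6 of the 10 genes below the median probe set in at least 1 group. Among these were Prdm1, the regulator of plasma cell differentiation, between 2.36 and 3.49, and Jchain, the joining chain of antibodies, between 2.56 and 3.61. Ighm, the IgM heavy chain, was bright on all arrays, at 11.18 to 12.14, and Tnfrsf13b, the receptor TACI, lay at 6.29 to 7.91 (these 4 were named after their values were seen). Irf4, a transcription factor of activated B cells and plasma cells, differed by 1.99 ± 0.58, Sdc1, the surface marker CD138, by 0.64 ± 0.26 (0.24 without _s, _x or _a probe sets), and Ell2, an elongation factor, by -2.68 ± 0.30. With 32 added before log2, Irf4 and Ell2, which are dim in 1 group, differed by 0.99 and -0.89. With their 2 probe sets averaged, Irf4 differed by 1.09 and Ell2 by -1.27.

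Among the chaperones, Hsp90b1 encodes GRP94, the ER form of HSP90 and the partner of MZB1. Its log2 intensity was 9.94 and 8.68 in CLP_RAGhigh and 9.61 and 9.22 in CLP_RAGlow. The CLP_RAGhigh arrays enclosed both CLP_RAGlow arrays, and their range of 1.27 exceeded the difference of -0.10 ± 0.46 many times over. Its sign was not stable: the difference was -0.74 without CLP_RAGhigh replicate 1, 0.53 without CLP_RAGhigh replicate 2, 0.09 without CLP_RAGlow replicate 1 and 0.09 with both probe sets averaged. A second probe set had 7.73 and 7.29 against 7.05 and 7.39, also with overlap. The partner chaperone thus showed no separation of the groups at either probe set.

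Hspa5 encodes BiP, the ER form of HSP70, which binds unfolded chains and keeps the stress sensors inactive. It had 11.13 and 10.82 in CLP_RAGhigh and 10.74 and 10.66 in CLP_RAGlow, so the groups did not overlap, but the gap was only 0.08. The difference was 0.28 ± 0.18 or 1.21-fold. Its other 2 probe sets disagreed, with a second one at 0.56 and no overlap in the same direction, and the other at -0.32 and no overlap in the opposite direction. The mean of the 3 probe sets gave 0.17.

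Apart from their values, the promoters of the genes were examined for motifs of the stress response. The ER stress response element (ERSE), bound by ATF6 together with NF-Y, reads CCAAT and CCACG with any 9 bases between them. Windows from 250 bases before to 50 after each annotated start were searched on both strands for exact matches. Of the 10 genes, 9 have a promoter in the RefSeq table (GRCm38.p6). Mzb1 has none there, so its promoter was not searched for this or any other motif. Of the 9, 5 hold the element, against 0.137% of 27025 genes (37 genes). They are Hsp90b1, Hspa5, Pdia6, Calr and Canx, the chaperones and an isomerase, with 6 matches in all. The 9 were chosen by function, as genes of ER folding and its stress response, so nothing is read from this share. The 6 matches, in 5 of the 9 genes, are shown, each read 5′ to 3′ along its own strand, with the fixed letters in capitals:

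Hspa5, 65 to 47 bases before the start: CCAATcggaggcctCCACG
Hsp90b1, 212 to 194 bases before the start: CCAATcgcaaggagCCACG
Hsp90b1, 107 to 89 bases before the start, opposite strand: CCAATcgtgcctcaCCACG
Pdia6, 98 to 80 bases before the start: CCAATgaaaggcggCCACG
Calr, 162 to 144 bases before the start, opposite strand: CCAATgagggtcgaCCACG
Canx, 145 to 127 bases before the start: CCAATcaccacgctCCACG

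The ends are fixed and the 9 letters between them differ from gene to gene. The 250 bases before the start are shown for the partner chaperone and for BiP, and for Ern1, the gene of the set that lay below in CLP_RAGhigh without overlap, as a promoter with no match. Capitals mark the fixed letters of ERSE, which read as their reverse complement where the match lies on the opposite strand:

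Hspa5 promoter, chr2:34771840-34772089, plus strand: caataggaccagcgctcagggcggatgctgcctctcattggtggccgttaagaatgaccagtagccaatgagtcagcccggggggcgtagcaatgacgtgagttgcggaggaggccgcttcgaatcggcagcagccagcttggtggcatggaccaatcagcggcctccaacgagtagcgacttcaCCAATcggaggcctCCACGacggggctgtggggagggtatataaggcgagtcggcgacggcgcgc
Hsp90b1 promoter, chr10:86705445-86705694, minus strand: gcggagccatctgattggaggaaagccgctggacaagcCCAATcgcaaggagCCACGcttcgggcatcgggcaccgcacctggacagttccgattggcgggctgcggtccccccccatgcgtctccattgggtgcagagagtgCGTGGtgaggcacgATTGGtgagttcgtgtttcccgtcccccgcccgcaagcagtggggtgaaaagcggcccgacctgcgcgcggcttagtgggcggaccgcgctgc
Ern1 promoter, chr11:106487797-106488046, minus strand: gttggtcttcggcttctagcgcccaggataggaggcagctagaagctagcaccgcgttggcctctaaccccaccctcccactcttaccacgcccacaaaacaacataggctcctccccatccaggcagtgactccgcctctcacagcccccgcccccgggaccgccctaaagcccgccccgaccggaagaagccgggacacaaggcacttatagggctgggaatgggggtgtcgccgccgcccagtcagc

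**Figure D2:**
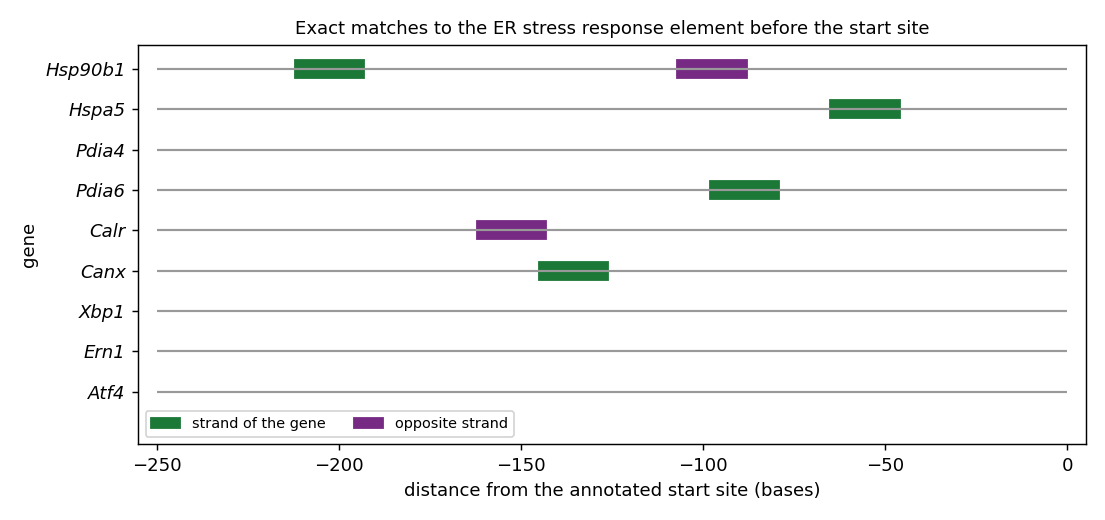
Exact ERSE matches (boxes) are drawn at their distance in bases from the annotated start site (horizontal axis) for the 9 genes with a promoter in the table. Hsp90b1 has 2 boxes, Hspa5, Pdia6, Calr and Canx have 1 each, and Pdia4, Xbp1, Ern1 and Atf4 have none in this window.

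Further motifs of stress signalling were searched in the same windows. ERSE-II (ATTGG and CCACG with any single base between them), which shares its last letters with ERSE, the core of the XBP1 element (TGACGTGG) and the core of the amino acid response element bound by ATF4 (TTGCATCA) had 0 matches in the 9 promoters. They are held by 0.0444%, 0.714% and 1.03% of all genes in the table. The 5 genes with ERSE had differences from -0.12 to 0.28, with a median of -0.02, and 1 of the 5, Hspa5, lay above without overlap (15.4% of all genes do so). The 4 genes without it had a median of 0.11 and ranged from -1.10 to 0.39. A match is a description of the letters and not of binding in these cells.

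Of the lectin chaperones, Calr, the soluble calreticulin, had 10.80 and 10.92 in CLP_RAGhigh and 10.83 and 11.14 in CLP_RAGlow. The groups overlapped, and the difference of -0.12 ± 0.18 was smaller than the range within CLP_RAGlow, 0.31. All 3 of its probe sets gave small negative values, from -0.12 to -0.08. Canx, the membrane-bound calnexin, had 11.50 and 11.47 against 11.54 and 11.48, a difference of -0.02 ± 0.12. Its 4 values spanned 0.07, the narrowest range of the 10 genes, and its other 2 probe sets gave 0.12 and 0.10 with overlap. Neither lectin chaperone separated the groups.

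The disulfide isomerase gene Pdia4 had 5.71 and 5.38 in CLP_RAGhigh and 5.20 and 5.14 in CLP_RAGlow. No overlap was seen, with a gap of 0.18, and the difference was 0.38 ± 0.33 (0.22 with 32 added before log2). Its second probe set was dim and gave 0.12 with overlap. Pdia6, another isomerase, had 8.83 and 9.17 against 9.05 and 8.82, with overlap and a difference of 0.06 ± 0.28. A dim second probe set of Pdia6 gave 1.02, which rested on CLP_RAGhigh replicate 1 at 5.07 beside 2.81, 3.19 and 2.65 on the other 3 arrays.

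Ern1 encodes IRE1α, the sensor whose nuclease splices the Xbp1 messenger. It went against Mzb1, with 8.58 and 8.48 in CLP_RAGhigh and 9.61 and 9.65 in CLP_RAGlow. The groups did not overlap, and the gap of 1.03 was about as wide as the difference of -1.10 ± 0.25, since the arrays of a group lay within 0.10 of each other. With 1 array left out the difference ran from -1.15 to -1.05. The 5 probe sets of Ern1 did not go 1 way. That of the values above is the brightest, and 2 others were also lower without overlap, at -0.65 and -0.38. The remaining 2 overlapped, at 0.49 and 0.12, and the mean of all 5 gave -0.31. The direction of Ern1 was thus shared by 3 of 5 probe sets, and 2 of the 5 had a group mean below the median probe set.

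Xbp1, the transcription factor made active by this splicing, had 10.54 and 10.73 in CLP_RAGhigh and 10.72 and 10.86 in CLP_RAGlow. The groups overlapped narrowly and the difference was -0.16 ± 0.17. Its other 3 probe sets overlapped as well, at -0.03, 0.25 and 0.00, so that the mean of the 4 gave 0.02. These values are the level of the transcript and do not show how much of it was spliced. Atf4, the factor translated when the kinase PERK is active, had 9.76 and 10.01 against 9.54 and 9.45. Its groups did not overlap, with a gap of 0.22 and a difference of 0.39 ± 0.23 or 1.31-fold. A second bright probe set gave 0.53 without overlap, and the remaining, lower one gave -0.07 with overlap.

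As a set, the 10 genes were evenly divided, with the mean of CLP_RAGhigh above that of CLP_RAGlow for 5 (50.6% of all genes) and below it for 5 (49.4% of all genes). Their median difference was 0.02, where that of all genes was 0.00. Mzb1, Hspa5, Pdia4 and Atf4 lay above without overlap (4 genes, where 15.4% of all genes do so) and Ern1 below (1 gene, where 15.8% do so). The genes were chosen with this comparison known, so nothing is read from the shares. Of the 28 probe sets, 6 lay above and 4 below without overlap, and 18 overlapped; among all 34945 probe sets 15.5% lay above and 15.2% below. Apart from Mzb1, 6 of 9 genes had a range within 1 of the groups that exceeded their difference. Mzb1 and Ern1 were the 2 genes with differences of more than 0.5.

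**Figure D3:**
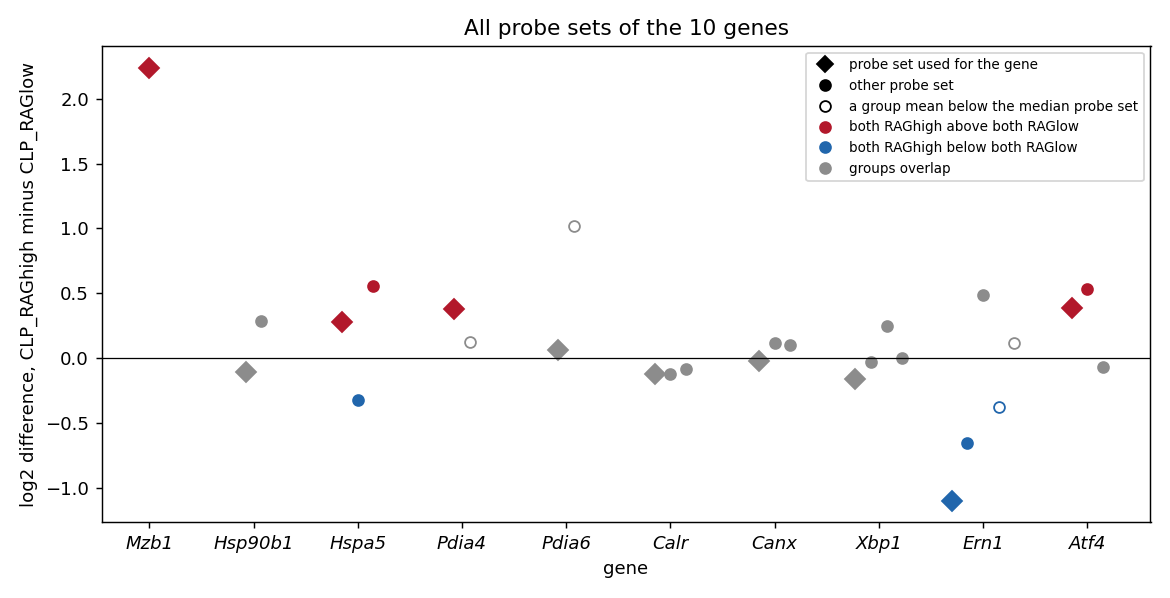
Each point is the log2 difference, CLP_RAGhigh minus CLP_RAGlow (vertical axis), of 1 of the 28 probe sets, grouped by gene; diamonds are the probe sets used for the gene, open circles have a group mean below the median probe set, red and blue mark groups that do not overlap (above and below) and grey those that do. Mzb1 stands apart at 2.24, the probe sets of Hspa5 and Ern1 fall on both sides of 0, and those of Calr and Canx lie close to it.

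The likeness of each gene to Mzb1 was measured as the Euclidean distance between log2 profiles over the 4 arrays, each centred on its mean. A gene with the same value on all arrays has a distance of 2.27. Atf4 (1.90), Pdia4 (1.94), Hspa5 (2.04) and Pdia6 (2.24) were nearer to Mzb1 than that. Canx (2.31), Calr (2.37), Xbp1 (2.41), Hsp90b1 (2.63) and Ern1 (3.36) were farther. The nearest of them, Atf4, ranked 1482 among 11575 genes with a mean at or above the median probe set.

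The 5 genes nearest to Mzb1 were Otub2 at 0.21, Wdr47 at 0.25, 1810073O08Rik at 0.31, Mroh2a at 0.32 and Pik3r6 at 0.36. Wdr47 was below the median probe set in CLP_RAGlow, at 2.94 and 3.24, and was ranked only because its mean over the 4 arrays lay above it. With 32 added before log2 the difference of Wdr47 went from 2.09 to 0.75 and that of Otub2 from 2.19 to 1.18. Otub2, a deubiquitinating enzyme, had 6.12 and 6.57 in CLP_RAGhigh and 3.87 and 4.45 in CLP_RAGlow. Pik3r6, a regulatory subunit of phosphoinositide 3-kinase gamma, had 9.84 and 9.70 against 7.35 and 7.49. Pik3r6 is the case in which a second probe set also separated the groups, by 3.28. The second probe sets of Otub2, Wdr47 and Mroh2a gave 0.07, -0.06 and -0.09 with overlap, and 1810073O08Rik has 1 probe set. With 4 arrays many genes that differ by a like amount have such a profile, and the order describes these arrays alone.

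**Figure D4:**
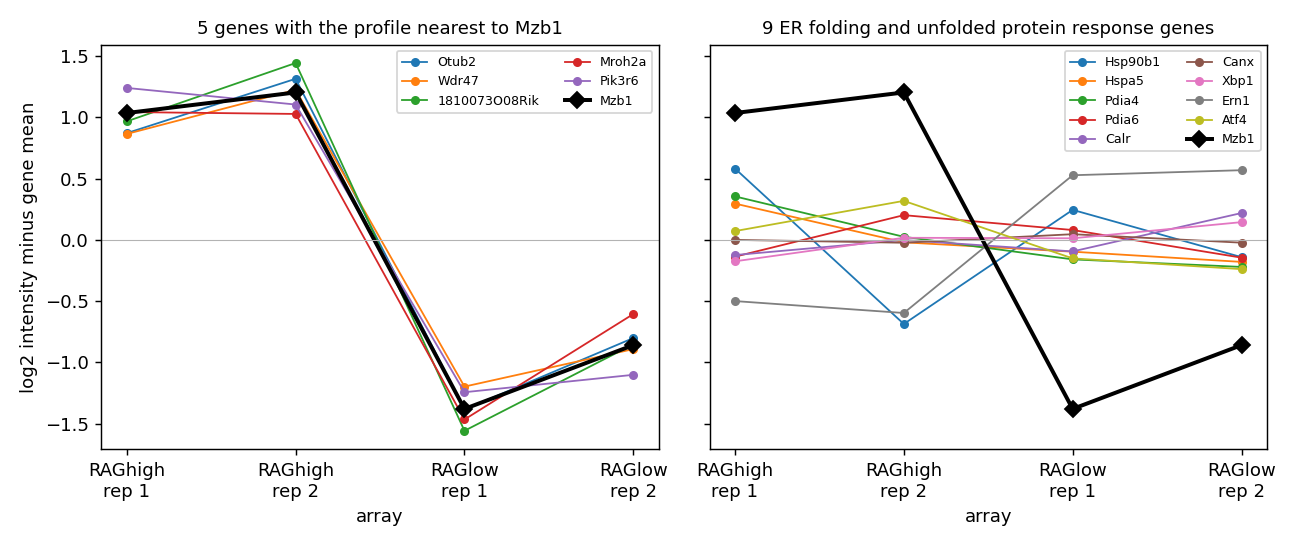
Log2 intensity minus the mean of the gene (vertical axis) is drawn on the 4 arrays (horizontal axis) for Mzb1 (black diamonds), with the 5 genes nearest to it on the left and the 9 folding and stress response genes on the right; lines only join the values of a gene. The nearest genes run close to Mzb1, while the 9 genes stay within 0.69 of their means and Ern1 runs opposite to Mzb1.

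Wider lists of the same pathways held 137 genes in 7 lists, of which 131 were measured, and none of the 10 genes is among them. With limma 0 of the 131 passed at an adjusted p under 0.05 in either direction (0% of all genes did so). At an unadjusted p under 0.05, 1 was higher in CLP_RAGhigh (2.35% of all genes) and 3 were lower (2.94%). The groups did not overlap for 19 genes above (14.5%) and 23 below (17.6%), where all genes had 15.4% and 15.8%. The median difference over the 131 genes was -0.08.

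The single gene with a higher level at an unadjusted p under 0.05 was Trib3, a pseudokinase induced through ATF4. It had 7.80 and 7.39 in CLP_RAGhigh and 5.70 and 5.38 in CLP_RAGlow, a difference of 2.06 ± 0.37 or 4.16-fold (limma adjusted p = 0.472). Its other probe set also separated the groups, by 0.99. The difference ran from 1.85 to 2.26 with 1 array left out. Of 19 measured ATF4 target genes, 11 were on average above and 8 below CLP_RAGlow, with a median of 0.03 (-0.04 without dim genes). Without overlap were 4 above and 3 below (21.1% and 15.8%, beside 15.4% and 15.8% of all genes). Ddit4, an inhibitor of mTOR signalling, differed by 1.27 ± 0.63, which was 0.47 without CLP_RAGhigh replicate 1. Asns, asparagine synthetase, differed by 0.88 ± 0.46, and 0.42 without CLP_RAGhigh replicate 1. Chac1 and Atf3, further targets named after their values were seen, were below the median probe set on all arrays, at 2.95 to 3.18 and 2.58 to 2.85.

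The list of stress sensors and transcription factors had 15 measured genes, 11 of them on average above and 4 below CLP_RAGlow, and a median of 0.25. Without overlap were 6 genes above (40%, beside 15.4% of all genes) and 1 below (6.67%, beside 15.8%), and 0 passed over all genes with limma. Among the 6 were Ern2, at 2.96 to 3.74, and Creb3l1, at 3.29 to 3.78, both named after their values were seen. These 2 lay below the median probe set on all arrays and cannot be told from background. With 32 added before log2 they differed by 0.10 and 0.08. Eif2ak3 encodes PERK, the sensor kinase that leads to ATF4. It had 6.83 and 6.90 in CLP_RAGhigh and 6.29 and 6.07 in CLP_RAGlow, a difference of 0.69 ± 0.35 (0.44 with its 3 probe sets averaged). Atf6b, a relative of the sensor ATF6, differed by 0.82 ± 0.37, with 6.76 and 6.30 against 5.79 and 5.63. Creb3, an ER-bound transcription factor, went the other way, with 7.13 and 7.08 against 8.38 and 8.28. Its difference was -1.23 ± 0.32 (limma adjusted p = 0.745), but its other 3 probe sets overlapped, at -0.75, -0.17 and -0.06. The median of the list ran from 0.13 to 0.33 over the alternatives.

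ER chaperones and co-chaperones had 7 means above and 14 below CLP_RAGlow among 21 genes, a median of -0.09, 2 without overlap above and 4 below (9.52% and 19.0%, beside 15.4% and 15.8% of all genes), and 0 passed. The median was 0.05 without CLP_RAGhigh replicate 2 and 0.03 without CLP_RAGlow replicate 1. Cnpy2, of the canopy family, had 10.57 and 10.88 in CLP_RAGhigh and 11.08 and 11.39 in CLP_RAGlow, a difference of -0.51 ± 0.19 (limma adjusted p = 0.926). Its other 3 probe sets gave -0.28 without overlap and -0.14 and -0.10 with overlap. The last, at 3.68 to 4.04 and so near the median probe set, is the one without an _s, _x or _a suffix. Sil1, the exchange factor that frees BiP from its client, differed by -0.56 ± 0.30, and Dnajc10, a reductase with a BiP-binding domain, by -0.49 ± 0.29 (-0.31 without CLP_RAGlow replicate 2). Hyou1, an ER chaperone of the HSP70 superfamily, and Dnajb9, a co-chaperone of BiP and target of XBP1, were named after their values were seen. They differed by 0.32 ± 0.30 and -0.22 ± 0.47.

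Genes of disulfide bond formation had a median of -0.20 over 19 genes, with 5 higher and 14 lower means, 2 without overlap above and 5 below (10.5% and 26.3%, beside 15.4% and 15.8% of all genes), and 0 that passed. Pdia5, an isomerase, had 5.74 and 5.66 in CLP_RAGhigh and 7.05 and 7.40 in CLP_RAGlow. Its difference of -1.52 ± 0.36 was the lowest of the 131 genes (limma adjusted p = 0.666) and rests on 1 probe set. Of further isomerase genes, both named after their values were seen, P4hb lay below without overlap, at -0.30 ± 0.19, and Pdia3 overlapped, at 0.20 ± 0.56. Pdia4 lay above at 0.38 ± 0.33 and Pdia6 overlapped at 0.06 ± 0.28, so the upward differences were small beside their errors. Tmx3, a membrane-bound thioredoxin, differed by 0.78 ± 0.37 (0.39 without CLP_RAGlow replicate 1), and Ero1a, the oxidase that recharges the isomerases, by 0.62 ± 0.37 (0.22 with its 3 probe sets averaged).

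Genes of ER-associated degradation, which removes chains that fail to fold, had a median of 0.11 over 21 genes, with 12 higher and 9 lower means. Without overlap were 4 genes above and 1 below (19.0% and 4.76%, beside 15.4% and 15.8% of all genes), and 0 passed. Herpud1, a stress-induced part of the degradation complex, differed by 0.48 ± 0.26, its relative Herpud2 by 0.51 ± 0.33, and Sel1l, the adaptor of the ligase, by 0.69 ± 0.38 (0.06 with its 5 probe sets averaged). The median of the list was -0.04 with probe sets averaged.

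The lists of the constitutive machinery had more lower than higher means in CLP_RAGhigh, and 0 of their genes passed. N-glycosylation and calnexin cycle genes had 4 higher and 12 lower means of 16, a median of -0.21, and groups without overlap for 0 genes above and 5 below (0% and 31.2%, beside 15.4% and 15.8% of all genes). Lower means are found for 49.4% of all genes. Dad1, Stt3b and Rpn2, subunits of the enzyme that attaches sugars to new chains, differed by -0.48 ± 0.25, -0.34 ± 0.18 and -0.53 ± 0.33. Stt3b was at -0.15 without CLP_RAGlow replicate 2, at -0.53 without CLP_RAGlow replicate 1 and at -0.11 with probe sets averaged, and Rpn2 at -0.33 without CLP_RAGlow replicate 1. ER translocation and signal peptide genes had 5 higher and 15 lower means of 20, a median of -0.20, and groups without overlap for 1 gene above and 4 below (5% and 20%, beside the same shares of all genes). Ssr1, of the translocon-associated complex, differed by -0.52 ± 0.25, Srp14, of the signal recognition particle, by -0.19 ± 0.13, and Sec11a, the signal peptidase, by 0.74 ± 0.34. Sec11a was at 0.37 without CLP_RAGlow replicate 2 and 1.11 without CLP_RAGlow replicate 1, Ssr1 at -0.31 without CLP_RAGhigh replicate 1, and Srp14 at -0.08 and -0.30 without CLP_RAGhigh replicates 1 and 2. Both medians stayed below 0 under every alternative.

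**Figure D5:**
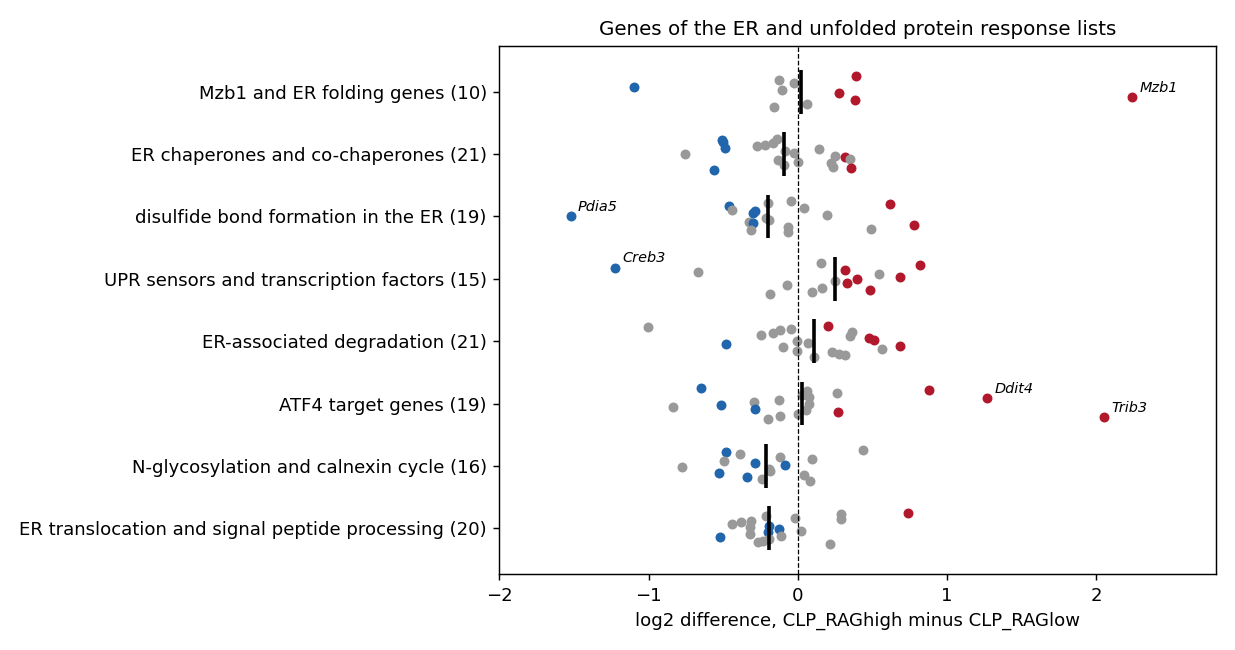
Each point is the log2 difference, CLP_RAGhigh minus CLP_RAGlow (horizontal axis), of 1 gene, in rows for the 10 genes and the 7 pathway lists (number of genes in brackets); red and blue mark groups that do not overlap (above and below), grey those that do, bars are list medians and the dashed line is the median of all genes. Mzb1 at 2.24 and Trib3 at 2.06 lie far to the right, Pdia5 and Creb3 to the left, and the list medians lie between -0.21 and 0.25.

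ERSE was also counted in these lists. It was held by 5 of 102 genes with a promoter in the table, Dnajc3, Ero1b, Creld2, Syvn1 and Derl3. Their differences ran from -0.46 to 0.57 with a median of -0.05, and 1 of the 5, Ero1b, lay below without overlap (15.8% of all genes do so). Over all genes on the array, the 20 with ERSE had a median difference of 0.00, as did the 14432 without it.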

How the data were processed

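Expression was measured in 4 samples of sorted mouse common lymphoid progenitors on Affymetrix MOE430_2 arrays, after dual amplification of RNA from 2000 cells per sample, per the labels and the series design. The deposited intensity values came from the RMA algorithm, a background correction, normalization across arrays and summary per probe set, per the series design. The program that ran it is not given in the sources used here. The values ran from 2.35 to 19893, which is a linear scale, so log2 was taken. RMA gives no detection call, so low values may be background. Probe sets of 1 gene can differ in what part of a transcript they read.

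Of 45101 rows, 64 controls were left out, and 34945 probe sets were listed with 1 gene by the platform annotation, 932 with several and 9160 with none. The gene IDs of 34741 matched the reference table. For each of 18193 genes the brightest probe set, by mean log2 over the 4 arrays, was kept. Groups were compared with limma 3.58.1 in R 4.3.3 (lmFit, eBayes with an intensity trend, two-sided, Benjamini-Hochberg over all genes, threshold 0.05), with 2 residual and 3.75 prior degrees of freedom, and the fit was tested on simulated data. Figures were drawn with matplotlib 3.10.9. Group and replicate come from the sample titles. The alternatives were the mean of all probe sets, no probe sets with an _s, _x or _a suffix where a gene has others, no dim genes, an offset of 32, a second quantile normalization, no trend, each array left out and the replicate number as a block.

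The 10 genes and all lists were chosen with earlier results of these data known. Named besides the 10 genes are Rag1 and Rag2, up to 3 genes of each pathway and marker list with the smallest limma p, and the 5 genes nearest to Mzb1 over the 4 arrays; others were named after their values were seen. Promoter sequences are from RefSeq (GRCm38.p6).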

Additional observations from a re-analysis of the deposited data

How the results depend on the processing

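The counts past the threshold, the differences of the 10 genes and of the other named genes, and the list medians were recomputed under 11 alternatives; marker sums, motif counts, distances to Mzb1 and ranks of size were not. The number of genes past an adjusted limma p of 0.05 was 0, and became 2 with probe sets averaged, 3 after a second quantile normalization, 1 without dim genes and 7 with the replicate block; with 1 array left out it stayed at 0. None of the pathway genes passed under any of them (0 of 131, with 4 at an unadjusted limma p under 0.05 and 1 to 12 when 1 array was left out). The median difference of the 10 genes, 0.02, was -0.01 (-0.0082) without CLP_RAGlow replicate 2 and ran from -0.0082 to 0.13 over the arrays left out. The number of the 10 genes without overlap was 5, and 6 to 8 with 1 array left out, where a single array against 2 separates more easily. With 1 array left out the differences of Calr (-0.28 to 0.03), Canx (-0.06 to 0.01), Pdia6 (-0.10 to 0.23) and Hsp90b1 (-0.74 to 0.53) had both signs. With 1 array left out Mzb1 ran from 1.98 to 2.50 and Ern1 from -1.15 to -1.05. With probe sets averaged Ern1 was at -0.31. Same-numbered replicates did not deviate together (correlation over genes -0.02), so the replicate block has no support as a pairing. In this balanced design the block changes the errors and cannot change a difference. The cause of these shifts was not tested. With 2 arrays per group and no detection calls, small differences of dim probe sets cannot be told from background.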

Other observations

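The core of the amino acid response element (TTGCATCA) was found in the promoters of 4 of 16 ATF4 target genes, against 1.03% of all genes in the table. These 4 were Chac1, Slc7a11, Aars and Atf3, chosen here after the search. Chac1, Slc7a11, a cystine transporter, and Atf3 lay below the median probe set on all arrays. Aars, an aminoacyl-tRNA synthetase, had 7.86 and 7.51 in CLP_RAGhigh and 8.12 and 8.55 in CLP_RAGlow, a difference of -0.65 ± 0.35. The window of Trib3 holds no exact match.

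S100a8, a calcium-binding protein of neutrophils, had 9.62 and 9.60 in CLP_RAGhigh and 10.15 and 3.81 in CLP_RAGlow. CLP_RAGlow replicate 2 thus differed from the other 3 arrays, and without it the difference turned from 2.63 to -0.54. On the same array Mzb1 was 7.43, nearer to the other CLP_RAGlow array than to either CLP_RAGhigh array.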
